A study of Mus musculus with 9 samples.

Results

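The mitochondrial ribosomal protein genes were followed through 3 cell populations of the mouse olfactory epithelium, and 76 of the 21909 gene symbols measured belonged to them. They were taken by name as every symbol that begins with Mrpl or Mrps followed by a digit. The set held 47 Mrpl genes, named for the large subunit of the mitochondrial ribosome, and 29 Mrps genes, named for the small subunit. The tissue was the main olfactory epithelium, taken when the mice were 4 weeks old. Horizontal basal cells (HBC), the reserve stem cells of this tissue, were sorted as positive for an anti-CD54-PE antibody. CD54 is the product of Icam1. The GBC population, globose basal cells with early precursors of neurons, was sorted as Neurog1-EGFP positive, so the promoter of the proneural gene Neurog1 decided which cells entered the gate. Mature olfactory sensory neurons (mOSN) were sorted as OMP-ires-EGFP positive cells, through a reporter placed at the olfactory marker protein gene. Each population gave 1 poly-A library, so nothing here can be checked against a second library and p-values were not computed. ScriptSeq reagents were used for HBC, whereas the GBC and mOSN libraries were built with the Illumina mRNA kit, and kit and population cannot be told apart in any comparison with HBC.

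The mitochondrial ribosome, or mitoribosome, sits in the mitochondrial matrix and translates the few messenger RNAs encoded by mitochondrial DNA, all of them for core subunits of the respiratory chain and ATP synthase. Its RNAs come from the mitochondrial genome, but every one of its proteins is encoded in the nucleus, made on cytosolic ribosomes and imported. Many of these proteins descend from bacterial ribosomal proteins, and others were added during the evolution of mitochondria and have no bacterial counterpart. Basal cells divide and change fate, and olfactory neurons keep a ciliated, ATP-consuming transduction apparatus.

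Values are FPKM, in which the fragments of a gene are divided by transcript length and by the mapped fragments of the library. The deposited interval of each value allowed the number of fragments behind it to be computed, and these implied fragments totalled 16515790 to 18123310 per library. Over the 76 genes together there were 17387.5 implied fragments from HBC cells, 35719.7 from GBC and 25374.9 from mOSN. The genes of the sort checked the labels in part. The 10 markers of horizontal basal cells summed to 1522 FPKM in HBC cells, 3.08 in GBC and 3.88 in mOSN. The 9 precursor markers summed to 76.4 FPKM in HBC cells, 1321 in GBC and 131 in mOSN, and the 8 markers of mature neurons summed to 147, 1088 and 9210 FPKM in the same order. The HBC library also held all 12 macrophage markers at 92.5 FPKM or more, with a sum of 5364 FPKM, against sums of 6.49 in GBC and 5.43 in mOSN. None of the 12 was at 0 in any library. The 6 sustentacular cell markers summed to 1781 FPKM in HBC cells, 39.5 in GBC and 145 in mOSN, but they were split. Cyp2f2, Cbr2, Ugt2a1 and Ermn were highest in HBC. Cyp2g1 and Sult1c1 were highest in mOSN, at 46.1 and 6.08 FPKM against 11.1 and 3.28 in HBC. The 9 genes of the response to tissue dissociation summed to 4293 FPKM in HBC cells, 373 in GBC and 476 in mOSN. The part of these other cells in the HBC values was not tested. In bulk samples of this kind, fewer cells of a type and less RNA per cell cannot be told apart.

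All 76 genes were detected in all 3 libraries, each as a single row of status OK. In HBC 71 of them reached 1 FPKM, and in GBC and mOSN all 76 did. Their levels summed to 405 FPKM in HBC cells, 891 in GBC and 878 in mOSN. As a share of all FPKM in the library this was 0.239% in HBC cells, 0.485% in GBC and 0.368% in mOSN. The median gene stood at 4.32 FPKM in HBC cells, 10.5 in GBC and 9.74 in mOSN, and 33, 67 and 64 genes reached 5 FPKM in the same order. The whole set was thus of moderate abundance, with its highest gene at 28.9 FPKM in HBC cells, 31.5 in GBC and 32.6 in mOSN. The 47 Mrpl genes summed to 272 FPKM in HBC cells, 605 in GBC and 605 in mOSN, and the 29 Mrps genes to 134, 286 and 273 FPKM. For 67 of the 76 genes the lowest level was in HBC. The share of all genes with their lowest level in HBC was not counted. Of all genes at 1 FPKM or more in either library, 61.0% were higher in GBC than in HBC. In mOSN against HBC 63.7% were higher. The highest was in GBC for 37, in mOSN for 35 and in HBC for 4. Among the 14594 genes that reached 1 FPKM in any library, the highest level was in GBC for 26.6%, in mOSN for 43.6% and in HBC for 29.8%.

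**Figure D1:**
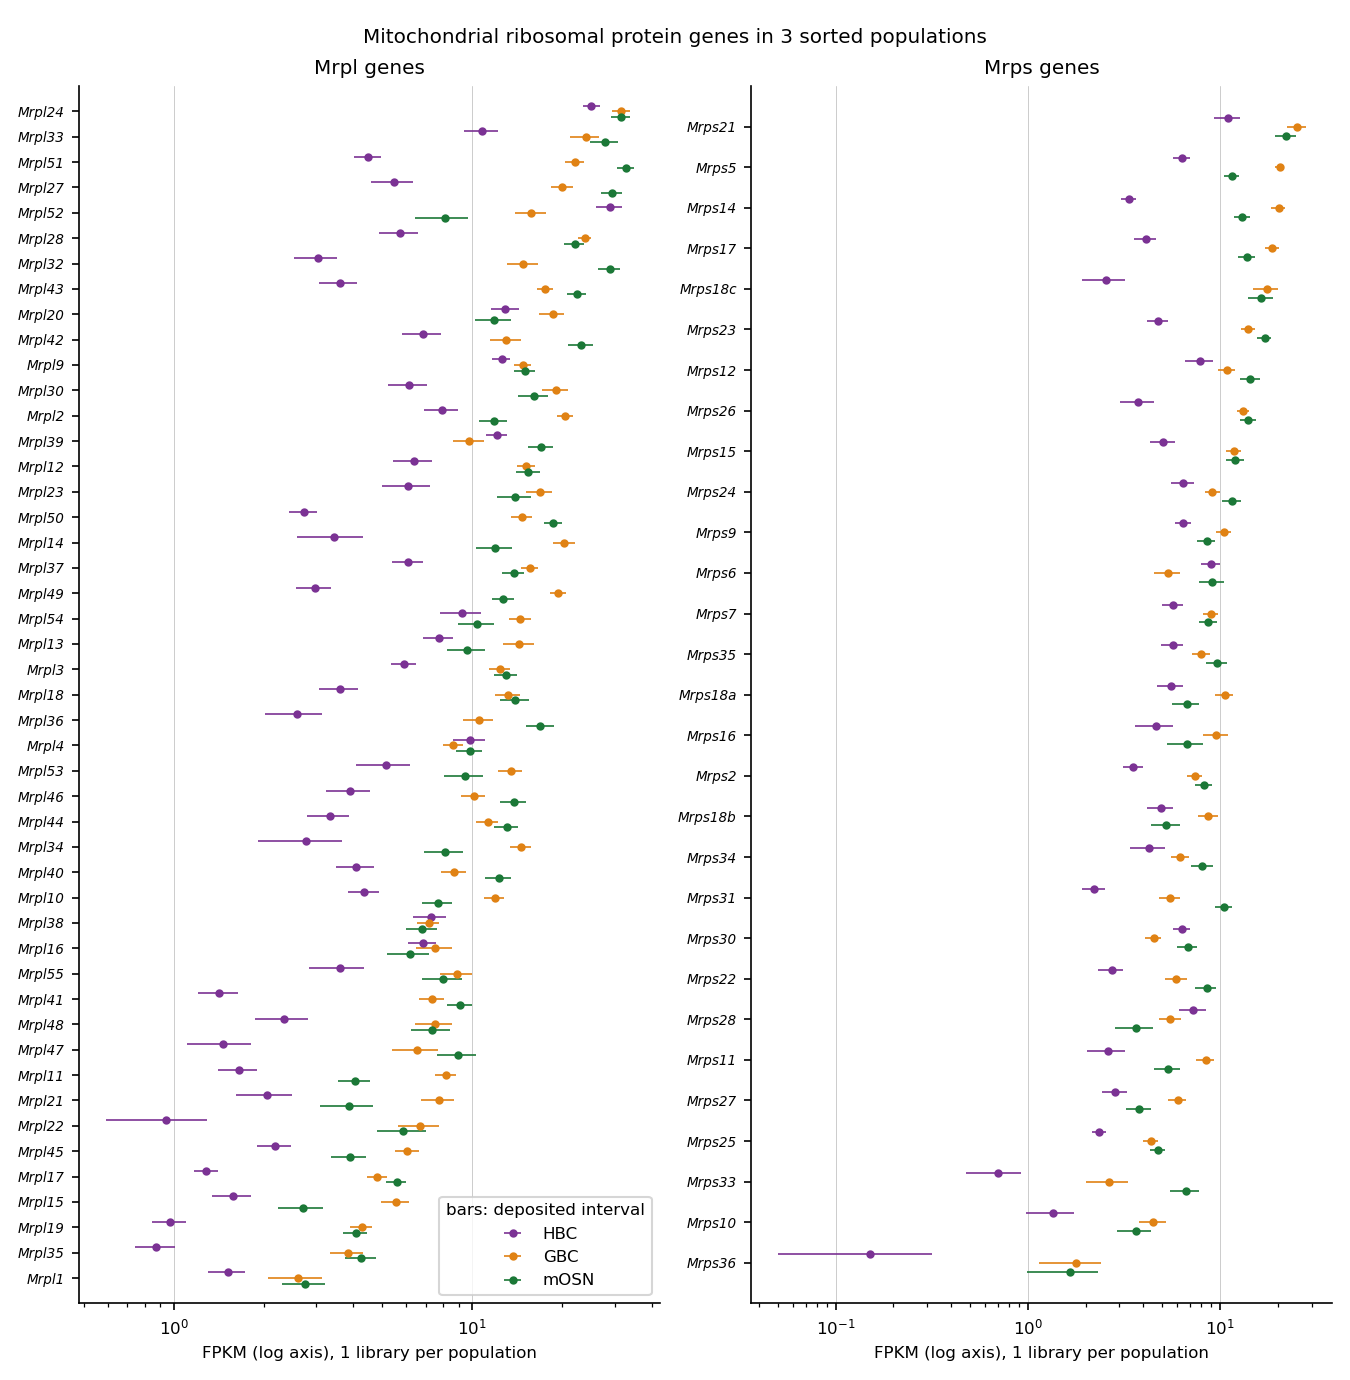
Level of each of the 76 genes in FPKM (log axis) in the HBC, GBC and mOSN libraries, Mrpl genes at the left and Mrps genes at the right, ordered by their mean. Points are 1 library each and bars are the interval deposited with the value, cut at the left where its lower bound is 0. For 67 genes the HBC point is the lowest, a count with no share over all genes beside it. Mrpl52 is the clearest exception, with its highest level in HBC.

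The most abundant gene by its mean was Mrpl24, a large-subunit protein of bacterial descent. Mrpl24 (chr3:87723466-87727355, mm9) had 25.1 FPKM in HBC cells, 31.5 in GBC and 31.4 in mOSN, which made it 2nd, 1st and 2nd of the 76. Its locus overlaps that of BC023814, which was at 2.75 to 6.82 FPKM. The next by mean level was Mrpl33, another protein with a bacterial counterpart, at 10.8 FPKM in HBC cells, 24.0 in GBC and 27.8 in mOSN. Mrpl51 (chr6:125142218-125144410, mm9), a protein without a bacterial counterpart, had 4.48 FPKM in HBC cells, 22.1 in GBC and 32.6 in mOSN, and was the highest of all in the neurons. The deposited intervals of its 3 values did not overlap, and its level was in the order HBC, GBC, mOSN. The most abundant Mrps gene was Mrps21, with 10.998 FPKM in HBC cells, 25.2 in GBC and 22.1 in mOSN. The intervals of GBC and mOSN overlapped for Mrps21, while HBC was below both.

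At the low end stood Mrps36, Mrpl1, Mrpl35, Mrpl19, Mrps10 and Mrpl15. Mrps36 had 0.150 FPKM in HBC cells, 1.77 in GBC and 1.66 in mOSN, and only 3.2, 32.3 and 24.4 implied fragments lay behind these values. Its protein, although named for the small ribosomal subunit, is known as a component of the 2-oxoglutarate dehydrogenase complex. Mrpl1 had 1.52 FPKM in HBC cells, 2.60 in GBC and 2.76 in mOSN. In HBC 4 further genes were under 1 FPKM, namely Mrps33 at 0.699, Mrpl35 at 0.873, Mrpl22 at 0.942 and Mrpl19 at 0.973 FPKM. Across the 76 genes, Spearman's rho of the levels was 0.787 for mOSN with GBC, 0.523 for GBC with HBC and 0.451 for mOSN with HBC. Over the 14594 expressed genes it was 0.831, 0.392 and 0.311 in the same order. These are descriptions across genes, which share the library and its depth and are not independent replicates.

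The genes lie on 17 chromosomes in mm9, with at most 10 on 1 of them, chromosome 11. In 26 of the 76 another gene lay within 500 bases, and the loci of 9 overlapped another gene. Neither was counted over all genes. Promoter windows from RefSeq (GRCm38.p6, 250 bases before to 50 after the gene start) were matched for 67 genes, in 73 windows, and were searched on both strands for letters that are known binding motifs of factors linked to nuclear genes for mitochondria. TGCGCA, the core of the NRF1 site, was found in 27.4% of the 73 windows, against 12.2% of the 12881 windows of other genes expressed at 1 FPKM or more and 7.76% of all 32851 windows. A longer palindromic NRF1 motif, which can overlap that core, was found in 16.4% of them, against 8.66% and 4.60%. CCGGAAG, an ETS-family motif bound by GABP, was found in 32.9%, against 14.7% and 8.86%. ATGGCGG, a YY1 motif, was found in 17.8%, against 6.89% and 4.05%. At least 1 of these 4 motifs was in 67.1% of the windows, against 31.5% of the windows of other expressed genes and 19.5% of all. The control letters TATAAA were in 5.48%, against 5.62% and 8.32%. Unlike the motifs, they were searched on the strand of the gene only. The median GC content was 58.3% in the windows of the 76 genes, 59.7% in those of other expressed genes and 52.7% in all. A match is a description of the sequence and not a site.

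The promoters below belong to genes that the comparisons turn on, and capitals mark the letters of the motifs on either strand. Mrpl32, Mrpl51 and Mrpl27 were higher in mOSN than in GBC and in GBC than in HBC, Mrpl52 ran the opposite way, and Mrps11 shares its start region with another gene of the set. The stretch of Mrpl32 (chr13:14613008-14613207, minus strand) carries 2 TGCGCA cores end to end, which span the palindrome, and a further core downstream. Its searched window holds 1 more core, upstream of the stretch. That of Mrpl51 (chr6:125192030-125192229, plus strand) carries 1 CCGGAAG. That of Mrpl27 (chr11:94653713-94653820, plus strand) carries CCGGAAG and ATGGCGG. That of Mrpl52 (chr14:54426739-54426938, plus strand) carries CCGGAAG on the opposite strand at 2 places. The stretch of Mrps11 (chr7:78783059-78783160, plus strand) was ended 72 bases before the start, near the start of the neighbour, and has none of the motifs, but the searched window of Mrps11 holds 1 ATGGCGG further upstream.
Mrpl32: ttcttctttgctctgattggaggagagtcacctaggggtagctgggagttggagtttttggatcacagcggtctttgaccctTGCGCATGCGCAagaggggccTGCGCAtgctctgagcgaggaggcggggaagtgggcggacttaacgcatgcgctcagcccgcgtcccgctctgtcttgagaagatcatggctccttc
Mrpl51: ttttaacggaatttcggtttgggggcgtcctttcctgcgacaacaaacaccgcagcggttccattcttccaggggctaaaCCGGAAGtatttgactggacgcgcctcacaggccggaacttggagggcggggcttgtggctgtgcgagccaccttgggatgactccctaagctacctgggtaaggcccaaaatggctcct
Mrpl27: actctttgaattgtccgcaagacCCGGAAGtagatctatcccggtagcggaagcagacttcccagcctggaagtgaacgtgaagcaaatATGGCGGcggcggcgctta
Mrpl52: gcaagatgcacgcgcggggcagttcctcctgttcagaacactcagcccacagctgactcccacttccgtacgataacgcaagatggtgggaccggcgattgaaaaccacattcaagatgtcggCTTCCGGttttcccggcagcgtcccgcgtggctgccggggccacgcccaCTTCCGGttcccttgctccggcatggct
Mrps11: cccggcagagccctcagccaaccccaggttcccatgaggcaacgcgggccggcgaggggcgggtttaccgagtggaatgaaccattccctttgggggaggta

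Mature neurons were first set against the precursors they arise from, both libraries having been made with the same kit. In the values as deposited, the set as a whole stayed close to its precursor level in the neurons. The median log2 ratio of mOSN over GBC, computed on FPKM + 1, was -0.03 over the 76 genes, whereas it was 0.24 over the 12551 genes at 1 FPKM or more in either library. At least 2-fold higher in mOSN was 1 gene, Mrps33, against a background of 22.4% of all genes. At least 2-fold lower in mOSN was 0, against a background of 10.3%, and 75 genes lay within 2-fold. These counts were made on FPKM + 1. Without the added 1, the fold of GBC over mOSN was 2.06 for Mrpl15 and 2.02 for Mrpl11. The ratio was above 0 for 36 genes, against 60.2% of all genes, and below 0 for 40. The deposited intervals were apart for 20 genes that were higher in mOSN and for 24 that were lower, and overlapped for 32, so many genes differed by more than the deposited interval, though by less than 2-fold. Among all genes with such intervals, 49.6% were higher with intervals apart and 30.3% lower. The median of the set minus that of all genes was between -0.28 and -0.26 under the 4 scales run, but its position against 0 depended on the scale. With the libraries rescaled to a common sum, the median was -0.35 for the set and -0.10 for all genes, and 8 of the 76 then passed 2-fold downward and 0 upward. The ratio was then above 0 for 16 genes, or 21.1%, against 46.1% of all genes. With 1 conversion factor per gene it was above 0 for 20 genes, or 26.3%, against 47.4%.

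**Figure D2:**
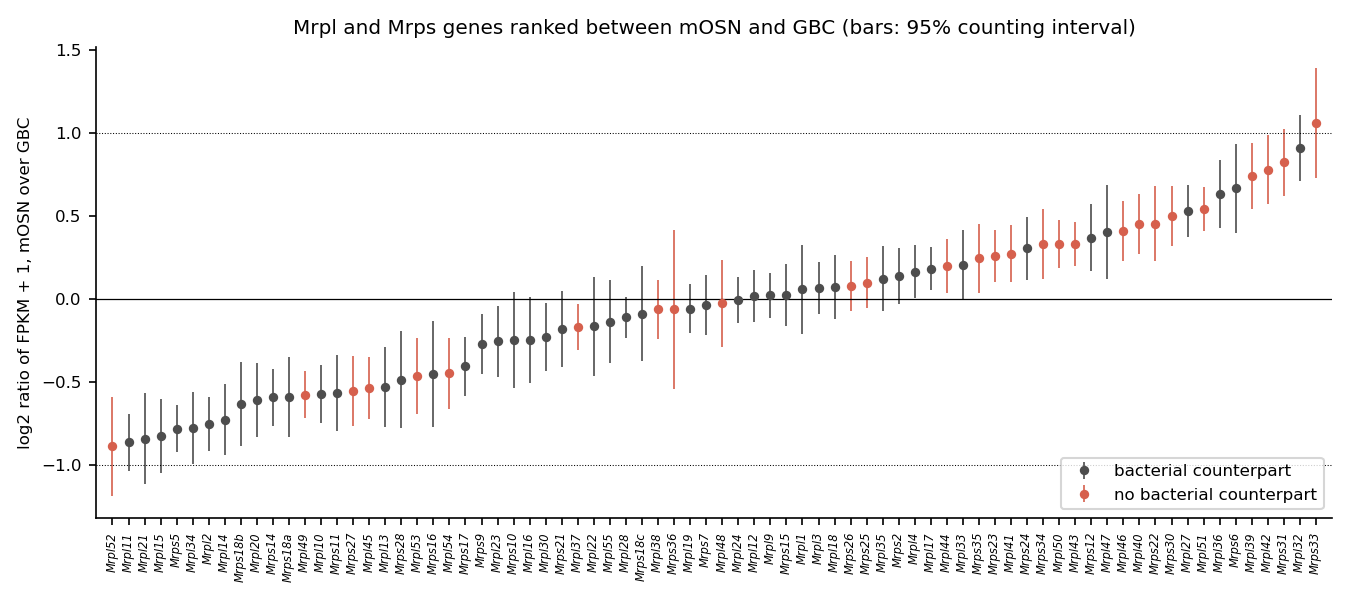
Log2 ratio of FPKM + 1, mOSN over GBC, of the 76 genes in rank order, with 95% counting intervals, which leave out all other error. Dark points have a bacterial counterpart and red points have none. Dotted lines mark 2-fold, which Mrps33 alone passes.

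Among the genes that were higher in the neurons, Mrps33 (chr6:39751807-39760935, mm9) encodes a small-subunit protein without a bacterial counterpart. Mrps33 had 6.64 FPKM in mOSN and 2.66 in GBC, a log2 ratio of 1.06 with a 95% counting interval of 0.73 to 1.39, from 135.9 and 65.0 implied fragments. Mrpl32 (chr13:14702568-14705304, mm9), known as a substrate that the inner-membrane m-AAA protease has to process before the large subunit is assembled, had 28.8 FPKM in mOSN and 14.8 in GBC (log2 ratio 0.91, interval 0.71 to 1.11). Both were clear of 0 by more than the counting error. Mrps31, Mrpl42, Mrpl39, Mrps6, Mrpl36 and Mrpl51 followed with log2 ratios of 0.83, 0.78, 0.74, 0.67, 0.63 and 0.54. Mrps31 was at 10.5 FPKM in mOSN and 5.51 in GBC, and Mrpl42 had 23.1 and 13.0 FPKM in the same order. Mrps6, of bacterial descent, had 9.14 FPKM in mOSN and 5.38 in GBC, but its locus overlaps that of Slc5a3, at 1.37 FPKM in mOSN and 0.846 in GBC. Mrpl27, just below these, was at 29.4 FPKM in mOSN and 20.01 in GBC.

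The genes that were lower in the neurons were led by Mrpl52 (chr14:55045746-55048587, mm9), a large-subunit protein without a bacterial counterpart. Mrpl52 had 8.08 FPKM in mOSN and 15.8 in GBC, a log2 ratio of -0.89 with an interval of -1.19 to -0.59, from 98.0 and 284.0 implied fragments. Behind it came genes that all have a bacterial counterpart. Mrpl11, whose bacterial relative contributes to the site where translation factors bind, had 4.04 FPKM in mOSN and 8.16 in GBC (log2 ratio -0.86). Mrpl21 was at 3.87 FPKM in mOSN and 7.72 in GBC, and Mrpl15 had 2.70 and 5.55 FPKM in the same order. Mrps5, the counterpart of a bacterial protein at the mRNA entry of the small subunit, had 11.5 FPKM in mOSN and 20.5 in GBC (log2 ratio -0.78). Mrpl34 (-0.77), Mrpl2 (-0.75) and Mrpl14 (-0.72) closed the group. Mrpl2, near the peptidyl transferase centre, had 11.8 FPKM in mOSN and 20.5 in GBC. Mrpl14 had 11.9 FPKM in mOSN and 20.3 in GBC.

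Nearest to 0 stood 8 genes, which ranged from the most abundant of the set by mean, Mrpl24, to the least abundant, Mrps36. Mrpl24 had a log2 ratio of -0.00 with an interval of -0.14 to 0.14. Mrpl12, the mitochondrial form of the stalk protein, which also binds the mitochondrial RNA polymerase, had 15.4 FPKM in mOSN and 15.2 in GBC (log2 ratio 0.02, interval -0.14 to 0.18). Mrpl9, Mrpl48, Mrps15, Mrps7, Mrpl19 and Mrps36 likewise had ratios between -0.06 and 0.03 with intervals that included 0. An interval that includes 0 does not show that the levels were equal, and for Mrps36 it reached from -0.54 to 0.42.

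The medians of both subunits were alike, whereas those by descent differed. The median log2 ratio of mOSN over GBC was -0.03 for the Mrpl genes and -0.03 for the Mrps genes. It was -0.15 for the 48 genes with a bacterial counterpart, of which 18 were above 0, and 0.25 for the 28 genes with none, of which 18 were above 0. Over all genes the median was 0.24 and 60.2% were above 0, so the 64.3% of the genes without a counterpart were near the background, while the 37.5% of those with one were below it. The order was the same within each subunit. Among Mrpl genes it was -0.08 for 30 with a counterpart and 0.20 for 17 without, and among Mrps genes -0.26 for 18 with a counterpart and 0.26 for 11 without. This is a description of classes that overlap widely, and no test stands behind it. With 1 conversion factor per gene, explained further on, the medians were -0.43 with and -0.16 without a counterpart, and at a common sum -0.48 and -0.09, so the second class was then below 0 while the order stayed.

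The Mrps18 paralogs differed among themselves. These 3 genes descend from a single bacterial gene, and structures of the mitoribosome place the products of Mrps18b and Mrps18c in the small subunit and that of Mrps18a in the large one. Mrps18a had 5.55 FPKM in HBC cells, 10.6 in GBC and 6.72 in mOSN. Mrps18b had 4.93 FPKM in HBC cells, 8.71 in GBC and 5.27 in mOSN. Mrps18c had 2.56 FPKM in HBC cells, 17.5 in GBC and 16.4 in mOSN. Both Mrps18a and Mrps18b thus peaked in GBC and were lower in mOSN, with log2 ratios of mOSN over GBC of -0.59 and -0.63. For Mrps18c this ratio was -0.09 (interval -0.37 to 0.20). Its ratio of GBC over HBC, 2.38, was the highest of the 76 as deposited, but was 1.31 with 1 conversion factor per gene. Mrps30, the other gene with a small-subunit name whose product is placed in the large subunit, had 6.32 FPKM in HBC cells, 4.52 in GBC and 6.81 in mOSN.

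Starts close together on opposite strands did not always go with shared changes in the values as deposited. In RefSeq, 22 of the genes have a gene that starts on the opposite strand within 500 bases. The share over all genes was not counted, and only some of these pairs are given here. Mrps11 and Mrpl46, both in the set, start 42 bases apart. Mrps11 had 5.37 FPKM in mOSN and 8.43 in GBC, a log2 ratio of -0.57, and Mrpl46 had 13.8 FPKM in mOSN and 10.1 in GBC, a log2 ratio of 0.41. With 1 conversion factor per gene these ratios were -0.85 for Mrps11 and -0.01 for Mrpl46, so Mrpl46 was then not above 0. In GBC over HBC both ratios were above 0, at 1.38 and 1.19. Mrpl32 starts 205 bases from Psma2, a proteasome subunit gene, whose ratio of mOSN over GBC was -0.22. Mrpl27 starts 48 bases from Eme1, which encodes an endonuclease subunit and had a ratio of -1.05 beside 0.53 for Mrpl27. Mrpl47 and the complex I gene Ndufb5, 308 bases apart, had similar ratios of 0.41 and 0.49. With the single factor the ratio was 0.97 for Mrpl32, 0.18 for Mrpl27, 0.56 for Mrpl47 and 0.37 for Ndufb5.

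The precursors were then set against the horizontal basal cells. Mitochondrial ribosomal protein genes were higher in GBC almost throughout, with a median log2 ratio of GBC over HBC of 1.17 over the 76 genes and 0.46 over the 13736 genes at 1 FPKM or more in either library. At least 2-fold higher in GBC were 46 of the 76, against a background of 34.6%. At least 2-fold lower were 0, against 23.4%. The ratio was above 0 for 69 genes, against a background of 61.0%, and the deposited intervals were apart for 68 that were higher in GBC, against a background of 56.0%, and for 4 that were lower, against 34.8%. Mrpl genes had a median of 1.32, with 33 of 47 at least 2-fold higher, and Mrps genes one of 0.90, with 13 of 29. The kit differed between these libraries, and the HBC library held the macrophage and dissociation genes given above. The size of the difference depended on the scale. Median-of-ratios scaling, which brought the median of all genes to 0, gave 0.78 for the set, with 27 genes at least 2-fold higher and 2 lower.

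As deposited, the largest ratios of GBC over HBC were those of Mrps18c (2.38), Mrpl49 (2.36), Mrps14 (2.28), Mrpl14 (2.26), Mrpl50 (2.07), Mrpl51 (2.07), Mrpl34 (2.04) and Mrpl43 (2.01). This order depended on the conversion to FPKM. With 1 conversion factor per gene they were at 1.31, 1.94, 0.29, 2.71, 0.68, 0.92, 3.25 and 2.10 in the same order. Mrpl28 and Mrps26, not among them, were then both at 2.70, beside 1.89 and 1.58 as deposited. Mrpl49 had 19.4 FPKM in GBC and 2.97 in HBC, although its locus overlaps that of Syvn1, at 9.38 and 11.1 FPKM. Mrpl14 had 20.3 FPKM in GBC and 3.44 in HBC. Mrps14 (chr1:162125391-162131317, mm9), a counterpart of a bacterial small-subunit protein, had 20.2 FPKM in GBC and 3.36 in HBC. Its implied fragments, however, were 568.0 in GBC and 457.0 in HBC, so the fragments behind its values differed far less than the values. Mrpl50, without a bacterial counterpart, had 14.7 FPKM in GBC and 2.73 in HBC. Mrpl43, which shares its start region with the gene of the mitochondrial DNA helicase, had 17.6 FPKM in GBC and 3.60 in HBC.

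The exceptions were 7 genes with a ratio below 0 as deposited. Mrpl52 had 15.8 FPKM in GBC and 28.9 in HBC, where it was the most abundant of the 76, a log2 ratio of -0.83 with an interval of -1.04 to -0.62. Mrps6 had 5.38 FPKM in GBC and 9.01 in HBC (log2 ratio -0.65). Mrps30 (-0.41), Mrps28 (-0.34) and Mrpl39 (-0.28) were smaller, with intervals below 0 in each case, and Mrpl4 (-0.17) and Mrpl38 (-0.02) had intervals that included 0. Mrps28 had 5.53 FPKM in GBC and 7.29 in HBC. Mrpl39 had 9.76 FPKM in GBC and 12.1 in HBC. With 1 conversion factor per gene, Mrpl52 (-0.41), Mrps6 (-0.80) and Mrpl39 (-0.95) stayed below 0. Mrps30 (0.09), Mrps28 (0.43), Mrpl38 (1.07) and Mrpl4 (1.21) were then above 0. Mrpl1 (-0.75), Mrpl16 (-0.54), Mrps25 (-0.39) and Mrpl24 (-0.07), above 0 as deposited, were then below it.

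Mature neurons against horizontal basal cells gave a picture close to that of the precursors. The 2 comparisons share the HBC library, so their likeness is not a second observation. The median log2 ratio of mOSN over HBC was 1.02 for the set and 0.63 for the 14092 genes at 1 FPKM or more in either library. At least 2-fold higher in mOSN were 39 genes, against a background of 40.4% of all genes. At least 2-fold lower was 1, Mrpl52, with 8.08 FPKM in mOSN and 28.9 in HBC, against a background of 23.0%. The higher genes were 51.3% of the 76 and the lower ones 1.32%. Intervals were apart for 62 higher and 2 lower genes, against 58.6% and 32.5% of all genes. The largest ratios as deposited were those of Mrpl32 (2.89), Mrpl51 (2.62), Mrpl50 (2.40), Mrpl43 (2.35) and Mrpl36 (2.32). Their sizes and order depended on the conversion to FPKM. These ratios were 1.79, 1.497, 1.20, 1.88 and 1.88 in the same order with 1 conversion factor per gene. Mrps26 was then the highest of the 76 at 1.95, beside 1.66 as deposited, and Mrpl27 was at 1.94, beside 2.24. Mrpl32 had 28.8 FPKM in mOSN and 3.03 in HBC. Mrpl36 had 16.9 FPKM in mOSN and 2.59 in HBC. Mrpl41, without a bacterial counterpart, had 9.09 FPKM in mOSN and 1.42 in HBC. Mrpl52 was the one gene of the set with each value below the one of the earlier stage by more than the deposited intervals, at 28.9 FPKM in HBC cells, 15.8 in GBC and 8.08 in mOSN.

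**Figure D3:**
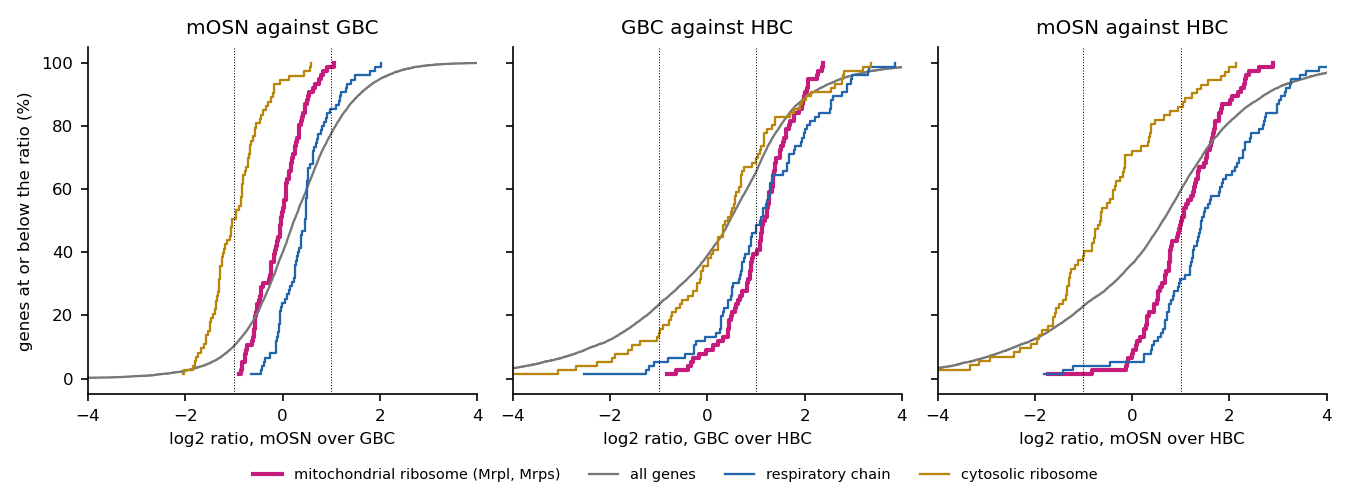
Cumulative share of genes (%) at or below each log2 ratio of FPKM + 1 in the 3 comparisons, for the 76 Mrpl and Mrps genes, all genes, subunits of the respiratory chain and cytosolic ribosomal proteins. Dotted lines mark 2-fold. In mOSN against GBC the 76 genes form a steep curve around a median of -0.03, between the cytosolic ribosome at -1.04 and the respiratory chain at 0.47.

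The other genes of the pathway were read beside the set and against the same background, at which 22.4% of all genes were at least 2-fold higher and 10.3% lower in mOSN than in GBC, and 34.6% higher and 23.4% lower in GBC than in HBC. The cytosolic ribosome went a different way from the mitochondrial one between precursors and neurons. The list had 73 measured genes, of which 37 were lower in mOSN than in GBC by at least 2-fold and 0 higher, with a median log2 ratio of -1.04 (-1.37 at a common sum). Taken by name, it also holds paralogs such as Rpl22l1 and Rps27l. Of its 84 genes, 72 reached 1 FPKM in GBC and 66 in mOSN. Some measured genes were near the floor, such as Rps27a with 1.03 FPKM in GBC and 0.336 in mOSN. Rplp0, an acidic stalk protein, was at 50.03 FPKM in mOSN and 210.5 in GBC, and Rps26 had 57.3 FPKM in mOSN and 237 in GBC. Between GBC and HBC the median of that list was 0.39, with 23 of 76 higher and 10 lower, and median-of-ratios scaling turned it to -0.13. Subunits of the respiratory chain and ATP synthase, which are encoded in the nucleus and join the products of the mitoribosome, had a median of 0.47 in mOSN over GBC (0.10 at a common sum), with 11 of 75 at least 2-fold higher and 0 lower. These 11 were 14.7% of the list, a smaller share than the 22.4% of all genes. Cox5a of complex IV was at 128 FPKM in mOSN and 30.8 in GBC, and Uqcrb of complex III had 68.1 FPKM in mOSN and 17.5 in GBC. Between GBC and HBC their median was 1.09, with 40 of 76 at least 2-fold higher and 4 lower. The differences between these lists were not tested.

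Nearer to the ribosome itself, 7 further subunits under other names were in the tables. Their median was 0.20 in mOSN over GBC, with 0 of 7 past 2-fold, and 0.94 in GBC over HBC, with 3 of 7 at least 2-fold higher. Mrp63 had 0.811 FPKM in HBC cells, 7.91 in GBC and 10.9 in mOSN. Gadd45gip1 had 2.96 FPKM in HBC cells, 12.9 in GBC and 8.11 in mOSN, and Chchd1 had 7.62, 15.5 and 20.6 FPKM in the same order. For 23 genes of mitoribosome assembly and rRNA modification the medians were 0.05 and 0.94, with 0 past 2-fold in mOSN over GBC and 11 higher in GBC over HBC. Ngrn, which helps to maintain the large ribosomal RNA, had 42.6 FPKM in mOSN and 24.8 in GBC. Mpv17l2 had 13.8 FPKM in mOSN and 7.45 in GBC. For 17 translation factors the medians were 0.17 and 0.77, with 1 higher in mOSN than in GBC and 6 higher in GBC than in HBC. The 1 was Pdf, which removes the formyl group from new mitochondrial proteins, with 10.4 FPKM in mOSN and 2.57 in GBC. With a common sum or 1 conversion factor per gene the mOSN over GBC medians of these 3 lists were below 0.

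The 17 mitochondrial aminoacyl-tRNA synthetases, which charge the tRNAs used by this ribosome, had a median of -0.24 in mOSN over GBC and 0.53 in GBC over HBC, with 4 at least 2-fold higher and 1 lower in the second. Lars2 stood apart from the other 16 with 1016 FPKM in HBC cells, 47.5 in GBC and 17.6 in mOSN. Iars2 had 8.82 FPKM in mOSN and 6.05 in GBC. Among genes of mitochondrial transcription and RNA processing, 14 were measured in mOSN against GBC with a median of 0.05, 1 higher and 1 lower. Rexo2, an exonuclease for short RNAs, had 55.8 FPKM in mOSN and 15.9 in GBC. In GBC against HBC 15 were measured, with a median of 0.34 that 1 conversion factor per gene turned to -0.42, and 0 were past 2-fold. The 21 genes of protein import and chaperones had medians of 0.14 and 0.76, and in mOSN over GBC a common sum turned this list to -0.23 and the transcription list to -0.27. Tomm70a, an import receptor of the outer membrane, was at 32.5 FPKM in mOSN and 11.2 in GBC, and Timm22, the channel of the carrier import pathway, had 5.79 and 11.7 FPKM in the same order. The 16 genes of the citrate cycle and outer membrane channels had medians of 0.60 and 0.86, with Sucla2 at 43.4 FPKM in mOSN and 15.8 in GBC.

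Some regulators of nuclear genes for mitochondria had larger ratios of mOSN over GBC than any gene of the set, as deposited. Of 8 measured in mOSN against GBC, 4 were at least 2-fold higher and 0 lower as deposited, with a median log2 ratio of 1.03. At a common sum 3 of 8 were higher and 1 lower, and with 1 conversion factor per gene 2 of 9 were higher and 1 lower, with a median of 0.06. That median is the value of Nrf1, which had no usable interval in mOSN. Nrf1 therefore kept its deposited FPKM, and its ratio of 0.06 was not converted. Ppargc1a, the coactivator of mitochondrial biogenesis, had 14.6 FPKM in mOSN and 1.32 in GBC. Esrra, a nuclear receptor that works with it, was at 14.4 FPKM in mOSN and 4.94 in GBC, and Yy1 had 21.6 FPKM in mOSN and 9.73 in GBC. With 1 conversion factor per gene the log2 ratio was 2.61 for Ppargc1a, 0.54 for Esrra and -0.07 for Yy1, beside 2.74, 1.38 and 1.08 as deposited. In the other direction, and named after their values were seen, Pprc1 had 1.83 FPKM in mOSN and 3.86 in GBC (log2 ratio -0.78, and -1.17 with the single factor), and Gabpb1 had 10.3 FPKM in mOSN and 15.3 in GBC (log2 ratio -0.53, and -0.49 with the single factor). Among the 67 genes with a promoter window, the 24 with CCGGAAG had a median log2 ratio of mOSN over GBC of 0.02 and the 43 without it -0.00. The 19 with TGCGCA had a median of -0.16 and the 48 without it 0.02, and the 13 with ATGGCGG had -0.16 and the 54 without it 0.01.

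**Figure D4:**
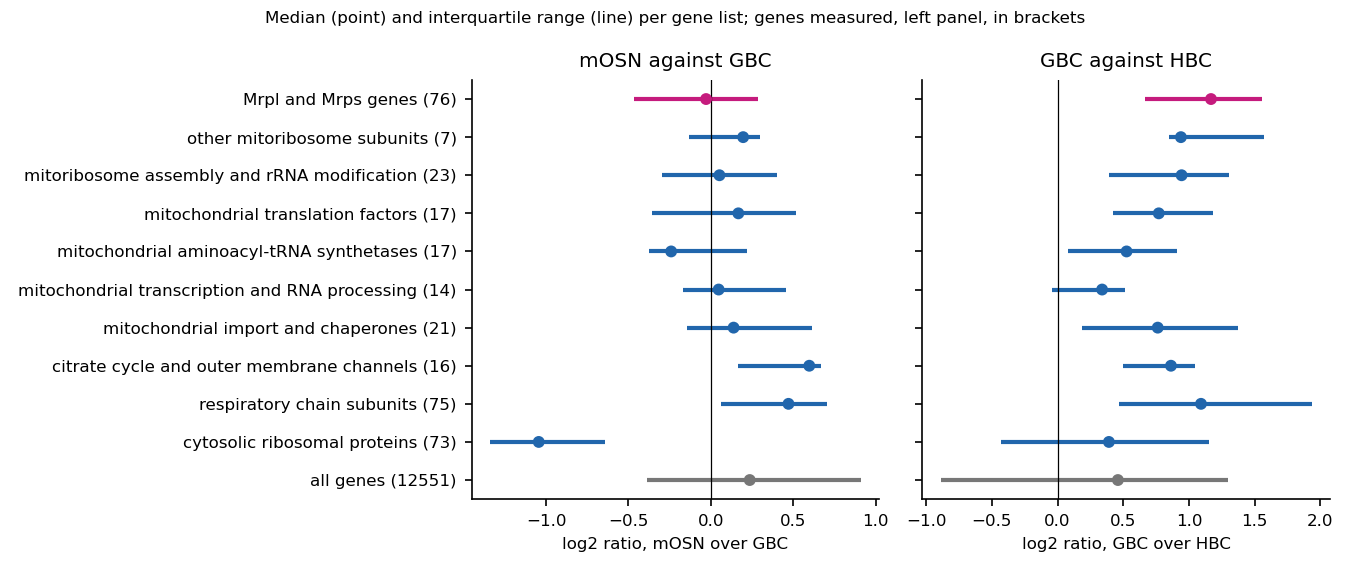
Median (point) and interquartile range (line) of the log2 ratio of FPKM + 1 in mOSN over GBC (left) and GBC over HBC (right), for the 76 Mrpl and Mrps genes, 9 other lists and all genes. In the left panel the cytosolic ribosomal proteins lie at -1.04 and the other lists between -0.24 and 0.60, and in the right panel every median is above 0 as deposited, where other scales turned the cytosolic ribosomal proteins to -0.13 and mitochondrial transcription to -0.42.

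The conversion of fragments into FPKM limits single genes more than the set. For a given gene, 1 FPKM stood for unequal numbers of implied fragments in the 3 libraries, and relative to all genes this conversion ranged over the set from -0.63 to 1.06 on the log2 scale for mOSN over GBC and from -2.09 to 1.71 for GBC over HBC. When each gene was given a single conversion factor for all libraries, the median of the set was -0.36 in mOSN over GBC, -0.08 for all genes, and 0.98 in GBC over HBC, 0.22 for all genes. Mrpl52 kept its order, with -1.29 in mOSN over GBC and -0.41 in GBC over HBC. Mrpl32 and Mrps33 stayed at 0.97 and 0.90 in mOSN over GBC. In contrast Mrps14 was at 0.29 in GBC over HBC with the single factor, beside 2.28 as deposited. Mrpl4 was at 1.21 beside -0.17, and Mrpl1 at -0.75 beside 0.52. For such genes the direction or the size between GBC and HBC cannot be read from the deposited values alone.

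**Figure D5:**
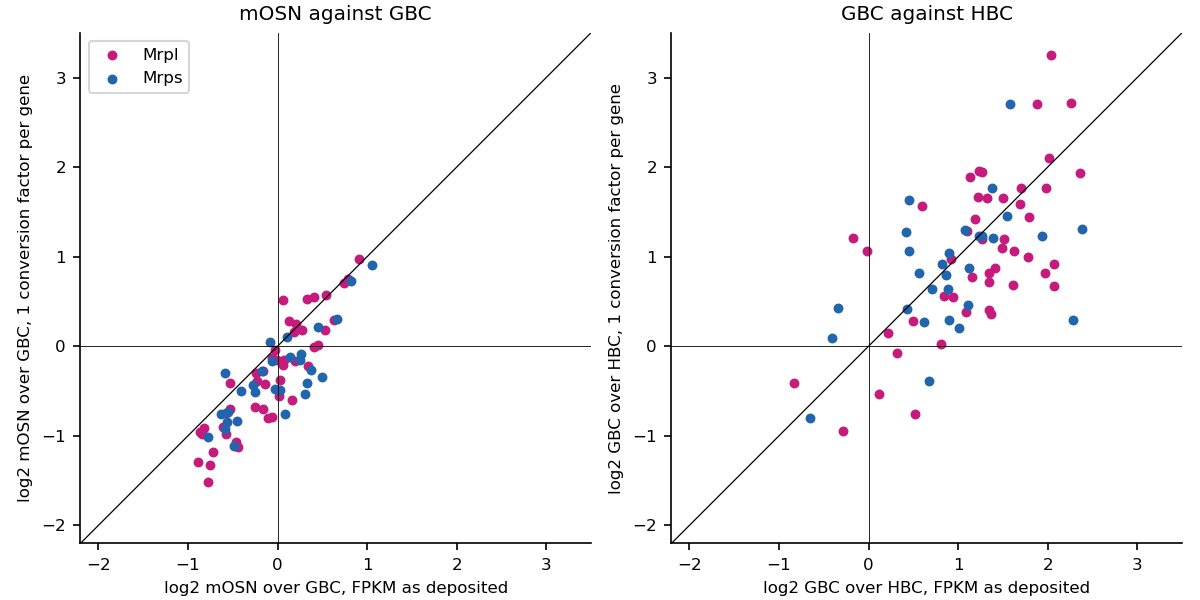
Log2 ratio of each of the 76 genes as deposited (horizontal) and with 1 conversion factor per gene from implied fragments to FPKM (vertical), for mOSN over GBC (left) and GBC over HBC (right). On the diagonal line both are equal. In the right panel the points scatter widely, with Mrps14 at 2.28 as deposited and 0.29 with the single factor.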

How the data were processed

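Per the file headers, the authors deposited FPKM for each gene and library, together with lower and upper bounds and a status flag. Bowtie, TopHat, Cufflinks and build mm9 appear in the submitters' processing notes. The gene annotation, options and versions were not given in the sources used here. The 3 samples of 5-hydroxymethylcytosine and 3 of 5-methylcytosine were not analysed here.

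Libraries were grouped by title. Rows of 1 symbol were added up, and starts count from 1. The implied fragments n are those for which 2 FPKM/√n equals the deposited half-width. The 95% counting intervals use n and cover counting error only, since PCR copies are not independent molecules. Ratios are on the log2 scale after adding 1 FPKM, so differences between low values are understated. A gene was measured at 1 FPKM or more in either library and counted as higher or lower at 2-fold. No test was run, each group having 1 library.

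The genes and all lists were chosen with earlier results of these data known. Descent was assigned from background knowledge, and Mrps28 was moved to the genes with a bacterial counterpart after values were seen. Named genes were the 6 highest and 6 lowest by mean, the 8 largest ratios per direction and comparison, the 8 smallest between mOSN and GBC, genes under 1 FPKM, a few of known role, and up to 3 per list at 5 FPKM or more. Mrps11, Mrpl46 and Mrpl47 were named after their values were seen, for their shared start regions.

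Computation used Python 3.11.15, numpy 2.4.6 and pandas 2.3.3, and the counting rule was tested on simulated data. Alternatives were other pseudocounts, filters and scalings, 1 conversion factor per gene, and leaving out overlapping or thinly covered genes.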

Additional observations from a re-analysis of the deposited data

How the results depend on the processing

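No paired analysis was possible because each population had 1 library and no replicate numbers were shared. The median log2 ratios and the counts past 2-fold were recomputed for the 3 comparisons. With a pseudocount of 0.1 FPKM, 1 gene was at least 2-fold lower in mOSN than in GBC. With a pseudocount of 5 FPKM, 0 were higher in mOSN than in GBC, the median of GBC over HBC was 0.68 with 17 higher, and that of mOSN over HBC was 0.62 with 23 higher. At a common sum, mOSN over GBC had a median of -0.35 with 0 higher and 8 lower, and mOSN over HBC one of 0.62 with 2 lower. Under median-of-ratios scaling, 0 were higher in mOSN than in GBC, GBC over HBC had a median of 0.78 with 27 higher and 2 lower, and mOSN over HBC one of 0.53 with 2 lower. With 1 conversion factor per gene, mOSN over GBC had a median of -0.36 with 0 higher and 8 lower, and mOSN over HBC one of 0.68 with 24 higher. In an alternative chosen after seeing the data, limited to genes with 100 implied fragments in both libraries, 0 were higher in mOSN than in GBC and 0 lower in mOSN than in HBC, since Mrps33 and Mrpl52 were left out for 65.0 and 98.0 fragments. The single conversion factor turned the ratio of Mrps14 in mOSN over HBC to -0.014, against 1.69 as deposited. Of 1625 recomputed ratios of named genes, 1237 stayed within the counting interval of the deposited ratio. Filters and row choices cannot change the ratio of a gene with a single OK row, so many of the 1625 were fixed in advance. Only pseudocounts, scalings and the single conversion factor could move a ratio. A change of sign, which a pseudocount cannot cause, was seen in 61. The single conversion factor gave 27 of 141, a common sum 18 of 141 and median-of-ratios scaling 16 of 141. Mrps14 was the 1 among the 61 that was past 2-fold as deposited. Other causes were not tested. In HBC, Mrps36 rests on 3.2 fragments, and replicate error cannot be given for any value.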
